A study of Mus musculus with 4 samples.

Results

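The CHD family of chromatin remodelers was described by the IGF2BP3-bound RNA of its 9 members, Chd1 to Chd9, out of 21,951 protein-coding genes in the mouse annotation (GENCODE M21, genome build mm10). A read cluster was given to a member when its centre lay inside the span of that gene on the gene's own strand, which took 509 of 337,234 clusters in replicate 1 and 326 of 216,354 in replicate 2. The data are eCLIP-seq, in which RNA crosslinked to a protein by UV light is recovered with an antibody and sequenced. Testes of 8-week-old wild type C57BL/6 males were used whole, so germ cells and somatic cells were lysed together. Each of the 2 replicates paired 1 IP library, made with an IGF2BP3 antibody, with 1 size-matched input library (SMInput), made from the same lysate with no antibody. The labels name a pair of testes and not how many animals gave a replicate. No IP from animals without IGF2BP3 or with another antibody was analysed here, so the SMInput is the only background.

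CHD proteins are ATPases that move, space or evict nucleosomes and carry a pair of chromodomains, which in several members bind histone tails. Sperm formation replaces most histones by protamines, a process in which Chd5 has a known role, while Chd3 and Chd4 are ATPases of the NuRD complex, which couples remodeling to histone deacetylation. IGF2BP3 is a cytoplasmic RNA-binding protein that influences the stability and translation of the mRNAs it binds, many of them carrying N6-methyladenosine.

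For each cluster the authors listed the log2 of the fold change, which is the IP reads over the SMInput reads after scaling each to its library, and the −log10 of the P value of that comparison. A cluster was called significant when both values were at least 2, which means an IP at least 4 times the SMInput on the read-depth scale and is the threshold of the study. The library totals that return the listed values as whole read numbers were 5,133,438 IP and 8,706,391 SMInput reads in replicate 1 and 4,637,612 and 16,696,122 in replicate 2. With these totals, the reads behind a cluster could be worked out where the −log10(P value) was listed above 0, which left out the clusters whose IP was below or close to the SMInput. Reads were known for 382 CHD clusters in replicate 1 and 257 in replicate 2, with a median of 4 IP and 2 SMInput reads in replicate 1 and 5 and 7 in replicate 2. With 1 SMInput read, a cluster needed 7 IP reads to be significant in replicate 1 and 4 in replicate 2. The replicates therefore differ in what they could call, and their counts are given side by side.

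The question asked of each gene was where, if anywhere, its RNA was richer in the IGF2BP3 IP than in the input of the same lysate. Few CHD clusters were significant, and those of Chd3, Chd4 and Chd5 lay closest to the input. In replicate 1, 10 of 509 CHD clusters were significant (1.96%, 95% Wilson interval 1.07 to 3.58), beside 4.92% of all clusters, and in replicate 2 it was 20 of 326 (6.13%, 4.01 to 9.29), beside 13.2%. The Wilson intervals here and below treat clusters as independent, although clusters share genes and libraries and some lie end to end. They are therefore no test of the family against all clusters. The median log2(fold change) of the CHD clusters was 1.18 in replicate 1 and 1.04 in replicate 2, against 1.5 and 1.53 over all clusters. The IP was not above the input, with a log2(fold change) of 0 or less, in 21.6% and 19.0% of CHD clusters, against 8.19% and 6.59% of all. These clusters were spread unevenly over the members. Of the 110 and 62, Chd5 gave 43 and 35 and Chd4 27 and 16. Chd1 gave 14 and 4, Chd8 9 and 3, Chd3 8 and 3, Chd6 6 and 1, Chd2 3 and 0, and Chd7 and Chd9 0 in both. In bulk tissue, fewer cells of a type and less RNA per cell cannot be told apart, so a low read number does not say which cells held little of an mRNA.

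The calls rested on small read numbers. Adjusting the P values by the Benjamini-Hochberg method over all clusters, with a limit of 0.05 and the same fold change, left 6 CHD clusters in replicate 1, where 3.24% of all clusters passed, and 11 in replicate 2, where 10.4% did. The significant clusters held 7 to 21 IP reads in replicate 1 and 4 to 17 in replicate 2. Fewer than 10 were held by 3 of the 10 in replicate 1 and 18 of the 20 in replicate 2. Over all significant clusters, this was so for 4,790 of 16,579 in replicate 1 and 17,480 of 28,494 in replicate 2.

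**Figure D1:**
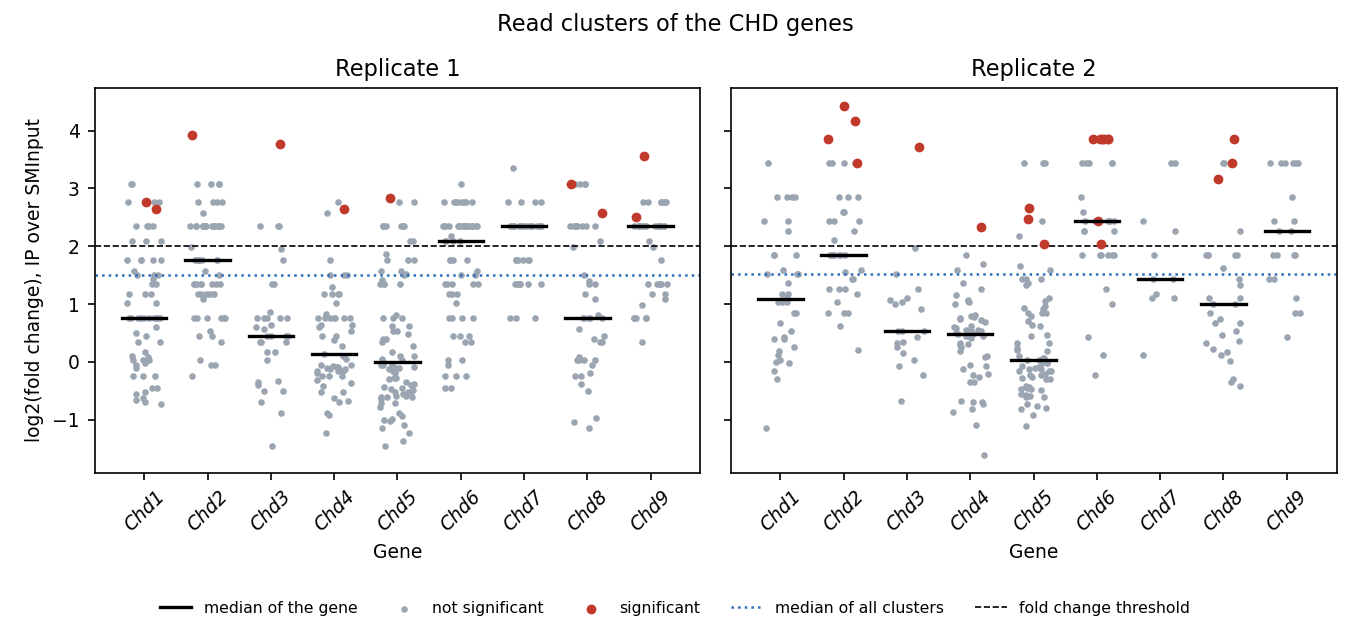
Each point is 1 read cluster of a CHD gene, with the gene on the horizontal axis and the log2(fold change) of IP over SMInput on the vertical axis, for replicate 1 (left) and replicate 2 (right); black bars are the gene's median, the dotted line is the median of all clusters and the dashed line is the fold change threshold of 2. Medians run from −0.00 for Chd5 to 2.35 for Chd7 and Chd9 in replicate 1 and from 0.04 for Chd5 to 2.43 for Chd6 in replicate 2, and points of Chd6, Chd7 and Chd9 above the threshold that are grey held too few reads to be significant.

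Most CHD clusters lay in coding sequence or introns. Coding sequence held 44.2% and 53.1% of CHD clusters in the 2 replicates, against 26.4% and 33.7% of all clusters, and the CHD clusters there had a median log2(fold change) of 0.35 and 0.43, against 0.76 and 0.93 for all. Of the coding clusters, 5 of 225 were significant in replicate 1 and 1 of 173 in replicate 2, where 5.27% and 7.95% of all coding clusters were. In 3′UTRs, 2 of 35 CHD clusters were significant in replicate 1 (19.4% of all 3′UTR clusters) and 7 of 26 in replicate 2 (34.4% of all). Introns gave 3 of 232 and 12 of 113, beside 1.94% and 10.7% of all intron clusters. The 3′UTR share of the significant CHD clusters was thus 20.0% in replicate 1 (Wilson interval 5.67 to 51.0, n = 10) and 35.0% in replicate 2 (18.1 to 56.7, n = 20), and over all significant clusters it was 43.2% and 36.7%.

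By gene, 7 of 9 members had a significant cluster in replicate 1 and 6 of 9 in replicate 2, beside 60% and 85.4% of the protein-coding genes with at least 10 clusters in that replicate, as every member had. Chd2, Chd3, Chd4, Chd5 and Chd8 had one in both, which is 5 of 9, beside 62.4% of the 6,102 genes with at least 10 clusters in each replicate and 33.0% of the 14,580 genes with any cluster. For both replicates together, the share of members is thus near that of genes with at least 10 clusters in each. It lies above that of such genes in replicate 1 and below it in replicate 2, with no test, and the genes were not matched further in cluster number. Only Chd8 had a site, meaning overlapping clusters on 1 strand, that was significant in both replicates, which is 1 of 9 members beside 25.8% of the genes with at least 10 clusters in each and 14.0% of those with any. Chd7 had no significant cluster in either replicate. Of the 10 significant clusters of replicate 1, 1 overlapped a significant cluster of replicate 2, 4 overlapped a cluster that was not significant there and 5 overlapped none. Of the 20 in replicate 2, these numbers were 1, 3 and 16. Over all clusters, 5,362 pairs of overlapping clusters were significant in both replicates, beside 16,579 significant clusters in replicate 1 and 28,494 in replicate 2. How many of all significant clusters overlapped none was not counted, so these numbers are not read as particular to the family.

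Chd1 and Chd2 remodel the chromatin of transcribed genes, Chd1 through chromodomains that bind the methylated histone tail at active promoters. Chd1 (chr17:15704967-15772610, plus strand) had 66 clusters in replicate 1 and 38 in replicate 2, with a median log2(fold change) of 0.76 and 1.09, and Chd2 (chr7:73426638-73541830, minus strand) had 68 and 39, with 1.76 and 1.85. Chd1 therefore lay below the medians of all clusters in both replicates and Chd2 above them. Introns held 63.6% and 60.5% of the Chd1 clusters and 72.1% and 59.0% of the Chd2 clusters.

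Chd1 had 2 significant clusters, both in replicate 1. The one with the most IP reads, at chr17:15714183-15714322 in intron 2, held 12 IP and 3 SMInput reads, a log2(fold change) of 2.76 with an exact 95% interval of 0.87 to 5.23 and a −log10(P value) of 3.05, and replicate 2 had no cluster there. The other lay in coding sequence of exon 36, the last exon, at chr17:15770047-15770149, with 11 IP and 3 SMInput reads and a log2(fold change) of 2.64 (0.72 to 5.12), and it did not pass after adjustment over all clusters (adjusted p = 0.0644, chi-square or Fisher's exact test). Replicate 2 had an overlapping cluster at this coding position, with 5 IP and 6 SMInput reads and a log2(fold change) of 1.59, whose interval of −0.47 to 3.56 includes 0. Enrichment at this place was thus called in replicate 1 only. The intervals here and elsewhere cover counting error only.

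Chd2 had 1 significant cluster in replicate 1 and 4 in replicate 2, at different places. In replicate 1 it was at chr7:73511617-73511669 in intron 5, with 9 IP reads to 1 SMInput read, a log2(fold change) of 3.93 (1.08 to 9.39) and a −log10(P value) of 3.05. In replicate 2, 2 of the significant clusters held the most IP reads, 6 each. That at chr7:73426794-73426878, in the 3′UTR of the last exon, exon 39, had 1 SMInput read and a log2(fold change) of 4.43 (1.39 to 9.96), with a −log10(P value) of 3.22, the highest fold change of any significant CHD cluster. That at chr7:73537081-73537159 in intron 2 had 2 SMInput reads and a log2(fold change) of 3.43 (0.95 to 6.77). Earlier in the 3′UTR, nearer the stop codon, at chr7:73428995-73429035, replicate 2 had 5 IP reads to 1 and a log2(fold change) of 4.17, and replicate 1 had 3 to 1 and 2.35 (−1.29 to 8.06), too few reads to be significant. Replicate 1 thus neither showed nor excluded enrichment there.

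Chd3, Chd4 and Chd5 form the subgroup with paired PHD fingers, of which Chd4 is the most widely used NuRD ATPase and Chd5 is known mainly from brain and testis. They had the lowest medians of the family in both replicates: 0.44 and 0.53 for Chd3, 0.14 and 0.49 for Chd4 and −0.00 and 0.04 for Chd5. Among the 8,056 genes with at least 10 clusters in replicate 1 and the 6,277 in replicate 2, 0.546% and 0.510% had a lower median than Chd5, 1.01% and 4.21% a lower one than Chd4, and 3.22% and 4.80% a lower one than Chd3. The quartiles of the gene medians were 1.18 and 2.08 in replicate 1 and 1.11 and 1.85 in replicate 2.

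The low medians of Chd4 and Chd5 did not come with few clusters. Counted per kilobase of exon, Chd5 had 6.96 and 6.85 mRNA clusters and Chd4 had 6.55 and 6.85, the highest numbers of the family, while Chd3 had 4.13 and 2.48, close to the 4.11 and 2.23 of Chd8, and Chd7 had 1.35 and 0.482 and Chd9 had 1.24 and 0.664. Clusters are called from IP reads before any comparison with the input, so their number per kilobase is read here as coverage and not as enrichment. Where reads were known, Chd4 clusters reached 42 and 47 IP reads and Chd5 clusters 36 and 23. The IP was not above the input in 43 of 85 Chd5 clusters in replicate 1 and 35 of 75 in replicate 2, and in 27 of 59 and 16 of 54 Chd4 clusters. Most of their clusters were exonic, since introns held 22.4% and 13.3% for Chd5 and 23.7% and 13% for Chd4.

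Within Chd5, exons and introns differed. Exonic clusters had a median log2(fold change) of −0.23 in replicate 1 and −0.03 in replicate 2, while its 19 and 10 intron clusters had 2.08 and 2.3. Over all genes, intron clusters also had higher medians than coding clusters, 2.03 against 0.76 in replicate 1 and 1.85 against 0.93 in replicate 2. With 3 IP reads to 1 SMInput read, the log2(fold change) is already 2.35 in replicate 1 and 3.43 in replicate 2 without being significant, and the part of low read numbers in the difference was not tested.

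Chd5 (chr4:152338651-152390194, plus strand) nevertheless had the significant CHD clusters with the most reads in each replicate. In replicate 1, a cluster of coding sequence in exon 37, at chr4:152384124-152384144, held 21 IP and 5 SMInput reads, a log2(fold change) of 2.83 (1.39 to 4.60) and a −log10(P value) of 4.98. Replicate 2 had a cluster at the same start with 8 IP and 16 SMInput reads and a log2(fold change) of 0.85 (−0.58 to 2.16), so the coding cluster was not significant there. Both begin at the first base of exon 37. In replicate 1, adjoining clusters ran to the end of exon 36, at chr4:152383269-152383379. They held 22 IP and 13 SMInput, 33 and 21, and 28 and 13 reads. Their log2(fold change) was 1.52, 1.41 and 1.87, below the threshold. Replicate 2 had 17 and 40 reads over exon 36 and 0.61. In replicate 2, a 3′UTR cluster in exon 42, the last exon, at chr4:152387714-152387868 held 17 IP and 11 SMInput reads, a log2(fold change) of 2.48 (1.3 to 3.72) and a −log10(P value) of 5.74, and the nearest cluster of replicate 1 lay 510 bases away. The other two significant Chd5 clusters of replicate 2 were a further 3′UTR cluster at chr4:152387184-152387218, with 8 IP and 7 SMInput reads and a log2(fold change) of 2.04, and 1 in intron 2 with 7 and 4 reads and 2.66. At that 3′UTR position replicate 1 had 10 IP and 11 SMInput reads and a log2(fold change) of 0.62 (−0.77 to 2.00). No position of Chd5 was significant in both replicates.

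**Figure D2:**
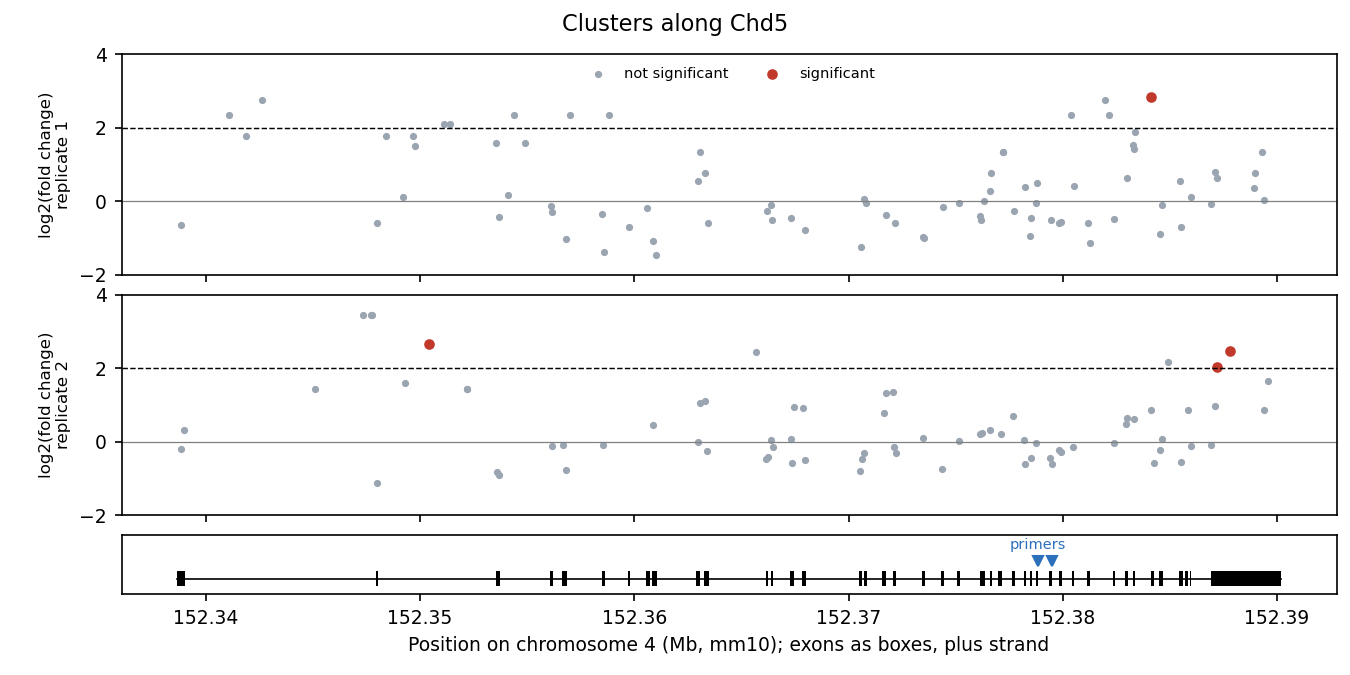
Clusters along Chd5, with the position on chromosome 4 in megabases (mm10) on the horizontal axis and the log2(fold change) of each cluster in replicate 1 (top) and replicate 2 (middle) on the vertical axes; the bottom panel shows exons as boxes and the places of the qPCR primers as triangles. Red points are the 1 significant cluster of replicate 1, in exon 37, and the 3 of replicate 2, in intron 2 and the 3′UTR, while most clusters over the exons between them lie near or below 0.

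Primers for Chd5, taken from the study's supplementary table of primers, mark a stretch of the mRNA on which the clusters can be read. The forward primer lies in exon 29 at chr4:152378829-152378847 and the reverse primer, printed as ordered and so on the opposite strand, in exon 30 at chr4:152379478-152379498, for a product of 169 bases.
Chd5 forward primer: cgggaccttcgagggaaga
Chd5 reverse primer: ccagcgacatgaccccaatac
In that stretch each replicate had 2 clusters, none of them significant, with log2(fold change) from −0.52 to 0.49 in replicate 1 and from −0.61 to −0.43 in replicate 2. The qPCR measurements themselves, with or without IGF2BP3 pulldown, were not analysed here, and qPCR after a pulldown reports on the whole RNA recovered and not on the stretch between its primers.

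Chd4 (chr6:125095981-125130591, plus strand) had 1 significant cluster in each replicate, in different places. In replicate 1 it lay in coding sequence of exon 28 at chr6:125120682-125120724, with 11 IP and 3 SMInput reads, a log2(fold change) of 2.64 (0.72 to 5.12) and a −log10(P value) of 2.46. This cluster did not pass after adjustment over all clusters (adjusted p = 0.0644, chi-square or Fisher's exact test), which leaves 4 of the 5 genes called in both replicates, without Chd4. The overlapping cluster of replicate 2 had 10 IP and 12 SMInput reads and a log2(fold change) of 1.59 (0.21 to 2.92). In replicate 2 it lay in intron 22 at chr6:125110791-125110835, with 7 and 5 reads and 2.33 (0.46 to 4.33). Of the Chd4 clusters with known reads, the one with the most IP reads lay in the 3′UTR of exon 39 in both replicates, with 42 IP and 46 SMInput reads in replicate 1 and 47 and 96 in replicate 2. Its log2(fold change) was 0.63 (−0.01 to 1.27) and 0.82 (0.28 to 1.34), so neither replicate came near the threshold there.

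Chd3 (chr11:69343273-69369406, minus strand) had 1 significant cluster in each replicate, and both lay in the 3′UTR of its last exon, exon 40. In replicate 1 it was at chr11:69343824-69343867, with 8 IP reads to 1 SMInput read, a log2(fold change) of 3.76 (0.86 to 9.23) and a −log10(P value) of 2.67. In replicate 2 it was at chr11:69343931-69344040, with 11 IP and 3 SMInput reads, a log2(fold change) of 3.72 (1.80 to 6.20) and a −log10(P value) of 5.02. The clusters did not overlap, and the coordinates of their nearest ends differed by 64. At the position of the replicate 2 cluster, replicate 1 had 6 IP and 4 SMInput reads and a log2(fold change) of 1.35 (−0.73 to 3.62). Nearer the end of the transcript, at chr11:69343296-69343378, a further pair just missed the threshold, with 16 IP and 7 SMInput reads and 1.95 (0.59 to 3.48) in replicate 1 and with 13 and 12 reads and 1.96 (0.71 to 3.22) in replicate 2. At neither of these places did both replicates pass the threshold.

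Chd6, Chd7, Chd8 and Chd9 form the remaining subgroup. Chd7 acts at enhancers and is the gene mutated in CHARGE syndrome, Chd8 binds β-catenin and restrains Wnt target genes, and Chd9 is known as a coactivator of nuclear receptors. Chd6 and Chd9 had medians above that of all clusters in both replicates, and Chd7 in replicate 1 only. Medians were 2.08 and 2.43 for Chd6, 2.35 and 1.43 for Chd7 and 2.35 and 2.26 for Chd9, and the clusters with known reads held a median of 4 and 3.5 IP reads in Chd6 and of 3 in Chd7 and Chd9 in both replicates. The 2.35 is the value of 3 IP reads to 1 SMInput read in replicate 1. There, 27 of 59 Chd6, 23 of 39 Chd7 and 22 of 43 Chd9 clusters with known reads held 1 SMInput read, beside 34.0% of all. In replicate 2 it was 11 of 32, 2 of 10 and 6 of 21, beside 12.3%. Fold changes of at least 2 on the log2 scale were listed for 34 of 67 Chd6 clusters, 23 of 39 Chd7 clusters and 25 of 43 Chd9 clusters in replicate 1. Only 2 of these, both in Chd9, held the reads to be significant. In replicate 2 such fold changes were listed for 23 of 34, 4 of 11 and 11 of 21 clusters, and 8 of these, all in Chd6, were significant. Over all clusters, 38.8% and 35.2% reached this fold change in the 2 replicates, and 4.92% and 13.2% were significant.

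Chd6 (chr2:160946978-161109075, minus strand) had no significant cluster among 67 in replicate 1 and 8 among 34 in replicate 2, the highest number of any member. Of these 8, 6 lay in introns and had the same 4 IP reads to 1 SMInput read, a log2(fold change) of 3.85 (0.51 to 9.47) and a −log10(P value) of 2.04, which is the smallest read number that could be called in that replicate. Among these 6, the clusters at chr2:161042803-161042820 and chr2:161042821-161042876 lie end to end and were counted separately. Joined where they touch, the significant CHD clusters of replicate 2 form 19 sites. The cluster with the most IP reads lay in coding sequence of exon 31 at chr2:160966393-160966540, with 8 IP and 7 SMInput reads, a log2(fold change) of 2.04 (0.38 to 3.74) and a −log10(P value) of 2.14. None of the 8 overlapped a cluster of replicate 1, and they are among the 16 of 20 significant CHD clusters of replicate 2 that overlapped none. The share over all significant clusters was not counted. After Benjamini-Hochberg adjustment over all clusters, the coding cluster alone of the 8 passed, with an adjusted p of 0.0473 by the authors' chi-square or Fisher's exact test.

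Chd7 (chr4:8690406-8867659, plus strand) had 39 clusters in replicate 1 and 11 in replicate 2, none significant, and no pair of clusters that overlapped between replicates. Where reads were known, its clusters held at most 6 and 5 IP reads, so only a strong enrichment could have been detected at this depth. The cluster nearest to a call, at chr4:8719113-8719168 in intron 1, had 6 IP reads to 1 SMInput read in replicate 1, with a log2(fold change) of 3.35 and a −log10(P value) of 1.91.

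Chd9 (chr8:90828352-91054516, plus strand) had 2 significant clusters among 43 in replicate 1 and none among 21 in replicate 2. The one with the most IP reads lay in coding sequence of exon 3 at chr8:90933050-90933121, with 10 IP and 3 SMInput reads, a log2(fold change) of 2.50 (0.54 to 5.0) and a −log10(P value) of 2.18. Replicate 2 had an overlapping cluster there with 6 IP and 6 SMInput reads and a log2(fold change) of 1.85, whose interval of −0.06 to 3.75 includes 0. The other cluster lay in intron 3 at chr8:90945309-90945363, with 7 reads to 1 and a log2(fold change) of 3.57. Neither passed after Benjamini-Hochberg adjustment over all clusters, with adjusted p of 0.0993 and 0.0847 by the authors' chi-square or Fisher's exact test.

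Chd8 (chr14:52198151-52257780, minus strand) carried the only site of the family significant in both replicates. It lay at chr14:52198286-52198418, 133 bases in the 3′UTR of the last exon, exon 37. Replicate 1 had 10 IP and 2 SMInput reads there, a log2(fold change) of 3.08 (0.85 to 6.31) and a −log10(P value) of 2.84, and replicate 2 had 5 and 2 reads, 3.17 (0.56 to 6.56) and 2.16. The fold changes of the replicates were thus close, on 15 IP reads in all, and the intervals of both reached below 1 on the log2 scale. The bases shared by both clusters, 30 in number, began 180 bases into the 444 bases of the 3′UTR. Their sequence is printed for the mm10 sense strand, chr14:52198385-52198414 on the minus strand, as the stretch of a CHD mRNA that both replicates called, and it has no capitals because it held none of the 4 motifs named further on.
Chd8 shared site: aattttgagaggattgggtgggcaggggaa
Elsewhere Chd8 had a significant coding cluster in exon 10 in replicate 1, with 14 IP and 4 SMInput reads and a log2(fold change) of 2.57, and 2 intron clusters in replicate 2, with 3.43 and 3.85, the latter of which did not pass after adjustment. Over its 47 and 33 clusters the median was 0.76 and 1.0, below that of all clusters.

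Comparing the same places between replicates, 139 CHD clusters of replicate 1 (27.3%) overlapped a cluster of replicate 2, and 24.9% of all clusters did. Chd5 gave 52 of these pairs, Chd4 37, Chd3 17, Chd8 14, Chd1 9, Chd2 6 and Chd6 and Chd9 2 each. In 1 pair, at the Chd8 site, both clusters were significant, which is 1 of 139 beside 6.4% of all pairs. In 41 pairs (29.5%) neither IP was above its input, against 5.93% of all pairs, and 25 of these 41 were in Chd5 and 12 in Chd4. Both fold changes were at least 2-fold, a log2 of 1, in 16 pairs (11.5%), against 35.4% of all pairs. Across the 139 pairs the fold changes of the replicates had a Pearson correlation of 0.638 and a Spearman correlation of 0.636, against 0.632 and 0.592 over all pairs. These are descriptions, since pairs share genes, libraries and read depth and some clusters stand in more than 1 pair.

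The reads of both replicates were also pooled, with the replicate as block. A Cochran-Mantel-Haenszel test was possible for 57 CHD pairs whose reads were known in both replicates, all of them pairs with the IP above the input in both, since reads were not known otherwise. Of these, 7 had a pooled log2 odds ratio of at least 2 and an adjusted p of at most 0.05 over the 61,428 pairs tested, beside 20.2% of those pairs. Because only pairs with the IP above the input in both replicates could be tested, the pooled values describe the pairs and add no support to them. The pooled log2 odds ratio was 3.12 at the Chd8 site, 3.30 in the Chd2 3′UTR at chr7:73429018-73429032 and 2.54 in the Chd3 3′UTR at chr11:69343951-69343962. In coding sequence it was 2.16 in exon 36 of Chd1 and 2.18 in exon 3 of Chd9. The other two were intron pairs of Chd2, with 2.64, and of Chd6, with 2.02. Just outside were pairs of Chd4 in exon 28, with a pooled log2 odds ratio of 1.99, and of Chd3 in the 3′UTR, with 1.96. No Chd5 pair was among the 7, the exon 37 cluster having 1.87.

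**Figure D3:**
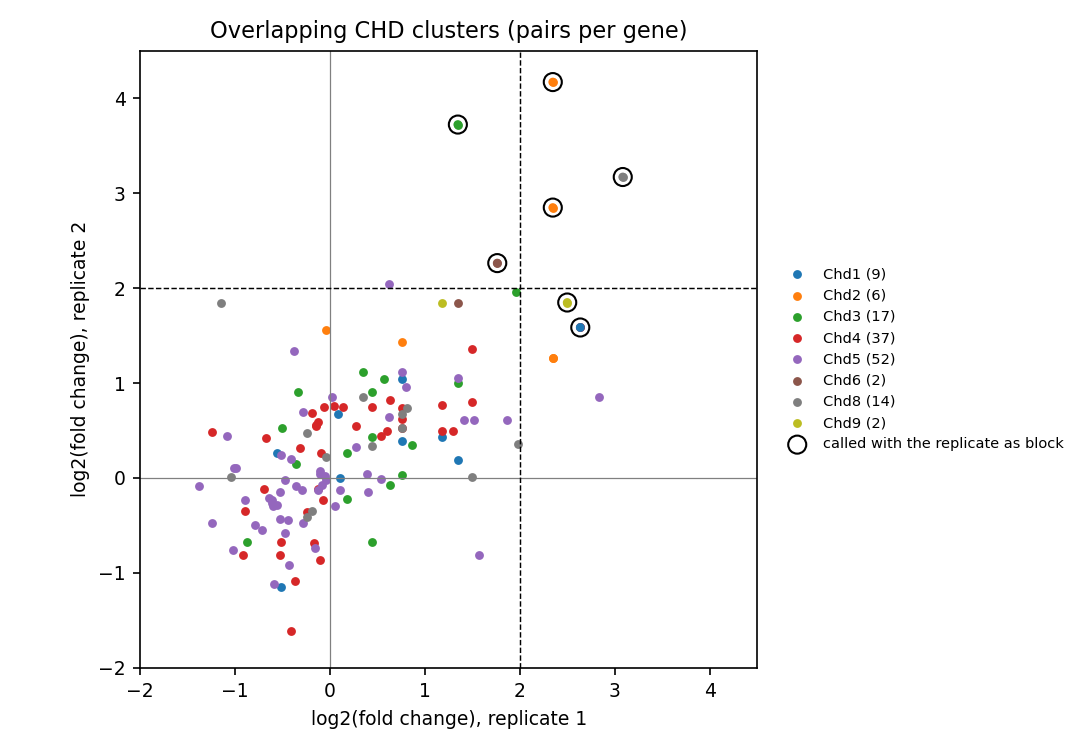
Each point is 1 pair of overlapping clusters, with the log2(fold change) of replicate 1 on the horizontal axis and of replicate 2 on the vertical axis, coloured by gene with the number of pairs in brackets; dashed lines mark the threshold of 2 and circles mark the 7 pairs called with the replicate as block. The circled Chd1 point at 2.64 and 1.59 hides a Chd4 pair with the same fold changes that was not called, and most Chd4 and Chd5 points lie near 0.

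Sequence around the significant clusters was searched for GGAC, a core of the motif at which N6-methyladenosine is placed, and for 3 other short words given with their counts, in windows of 100 bases around each centre and on the strand of the gene. GGAC was in 2 of 10 CHD windows in replicate 1 and 4 of 20 in replicate 2, and in 26.2% and 24.0% of the windows of all significant clusters. The word GAACA was in none, beside 8.89% and 8.38% of all. AAACC was in 1 and 2 windows (8.65% and 8.11% of all) and CATCA in 1 and 2 (10.3% and 9.03%). By region, the coding windows of replicate 1 held GGAC in 2 of 5, those of Chd1 and Chd5, where 29.6% of all significant coding windows did. In replicate 2, 1 of 7 3′UTR windows held it, that of Chd2, where 23.4% did, and 3 of 12 intron windows, of Chd5 and Chd6, where 21.1% did. The 2 3′UTR windows and the 3 intron windows of replicate 1 and the 1 coding window of replicate 2 held none. A match describes the letters only and is no evidence of a bound or methylated base.

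For 4 exonic clusters, of Chd1, Chd2, Chd5 and Chd9, 1 stretch with a motif of the window is printed so that the motif can be seen in its place, while further matches in these and other windows are not shown, with the motif in capitals, on the sense strand of mm10. That of Chd5 is chr4:152384132-152384161 and that of Chd1 is chr17:15770082-15770111, both on the plus strand. That of Chd2 is chr7:73426796-73426825 on the minus strand, and that of Chd9 is chr8:90933099-90933128 on the plus strand.
Chd5 exon 37: atgcccgctggcaGGACattcagaatgacc
Chd1 exon 36: accgatctcactcGGACcatcgaatgcact
Chd2 3′UTR: ttgtGGACttttgAAACCtgttgactaaac
Chd9 exon 3: tttctccgactgcAAACCctcctgcacact
The first, second and last come from coding sequence and the third from a 3′UTR, which also held AAACC in the same stretch. The GGAC of Chd5 begins at the base after the end of the cluster, and the other motifs in capitals lie inside theirs.

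Several CHD genes host small RNAs in their introns, and reads from these count toward the host. Snord8, a small nucleolar RNA in Chd8 (chr14:52209785-52209894), held 3 clusters in replicate 1 and 5 in replicate 2, with up to 82 and 122 IP reads, the most of any CHD cluster whose reads were known. Their log2(fold change) ran from −0.19 to 0.82 and from −0.35 to 0.74, so Snord8 lay within 2-fold of the input in both. Small Cajal body RNAs gave 2 clusters per replicate in Chd3, from −0.88 to 0.76 and from −0.67 to 0.03, and 1 per replicate in Chd4, at −0.41 and −1.61. None of these was significant, and none of the 30 significant clusters lay in a small RNA.

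The partners of Chd3, Chd4 and Chd5 in NuRD were set beside them. The 12 partner genes (the Mta, Hdac, Rbbp, Mbd and Gatad2 subunits and Cdk2ap1) had 21 significant clusters of 393 in replicate 1 (5.34%) and 30 of 260 in replicate 2 (11.5%), near the 4.92% and 13.2% of all clusters, and medians of 1.35 and 1.43. A significant cluster in both replicates was found in 7 of the 12, beside 62.4% of genes with at least 10 clusters in each replicate and 33.0% of genes with any. Gatad2a, the subunit that links the deacetylase and remodeling parts of the complex, was alone in having sites significant in both replicates, as 1 of 12 genes beside 25.8% of genes with at least 10 clusters in each replicate and 14.0% of those with any, and it had 3. Those at chr8:69908951-69909094 and chr8:69909352-69909422 lay in its 3′UTR, with log2(fold change) of 2.47 and 2.60 at the first and 2.02 and 2.49 at the second in replicates 1 and 2, and the third, at chr8:69918342-69918462, lay in an intron, with 2.76 and 2.85. The ATPase subunits thus had lower medians than the partner list in both replicates, as 3 genes beside 12 and with no test.

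Among 8 other remodeling ATPases of the SNF2 type (Chd1l, Smarca1, Smarca5, Ino80, Srcap, Ep400, Hells and Atrx), 13 of 487 clusters in replicate 1 (2.67%) and 26 of 350 in replicate 2 (7.43%) were significant, beside 4.92% and 13.2% of all clusters, with medians of 1.28 and 1.07, close to those of the CHD genes. There, 5 of the 8 had a significant cluster in both replicates, beside 62.4% of genes with at least 10 clusters in each replicate and 33.0% of those with any, 2 of the 8 had a shared site, beside 25.8% and 14.0% of the same sets of genes, and Smarca1 and Hells had none in either. Chd1l, a remodeler activated by poly(ADP-ribose), had 2 sites significant in both. Its 3′UTR site at chr3:97560783-97560909 had log2(fold change) of 4.67 and 3.96, above the 3.08 and 3.17 of the Chd8 site, and its coding site at chr3:97610063-97610184 had 2.08 and 2.04. Ep400, the ATPase of a complex that acetylates histones and exchanges variants, had 1, in the 3′UTR at chr5:110665528-110665648, with 2.62 and 3.63.

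The labelled tissue was checked against marker genes by whether they had any cluster. All 5 spermatid genes (Prm1, Prm2, Tnp1, Tnp2, Acrv1) had clusters, 50 in replicate 1 and 41 in replicate 2, as had the 4 spermatocyte genes (248 and 195), the 3 spermatogonial genes (59 and 47), the 4 Sertoli cell genes (117 and 109) and the 4 Leydig cell genes (33 and 31). Alb, Ins2 and Myh6, which testis should lack, had 0 in both. RNA of germ and somatic cells was therefore present in the lysates, and the cells from which the CHD reads came were not resolved.

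Which gene a cluster is given to mattered for some members. When each significant cluster went to whichever gene had its transcription start closest, on any strand, a rule tried after seeing the data, the family received 9 and 13 significant clusters, and Chd2, Chd5 and Chd8 had one in both replicates. Chd3 and Chd4 then received none. Chd8 received 4 and 5, of which 4 in each replicate lay inside the neighbouring gene Rab2b and not in Chd8, and 1 of the 4 given to Chd6 in replicate 2 lay in Ptprt.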

How the data were processed

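The authors demultiplexed the eCLIP reads with unique molecular identifiers, trimmed them with cutadapt, removed ribosomal RNA reads with Bowtie2, aligned the rest to mm10 with STAR, collapsed PCR duplicates, called clusters with Clipper and normalized each IP to its SMInput, replicate by replicate. In the deposited tables, −log10 of the authors' P value of IP against SMInput is 0 for clusters with the IP below or close to the SMInput and at most 400. The deposited log2 values are the authors' fold changes of IP over SMInput per usable reads.

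Reads were recovered from both values (Fisher's exact test when a number was under 5, otherwise Yates' chi-square test) for 99.9% and 99.7% of the clusters listed between 0 and 400, in procedures tested on simulated data. Regions came from basic transcripts at the cluster centre, where 3′UTR took precedence, then CDS, 5′UTR, exons of non-coding transcripts and introns. A pair is a replicate 1 cluster and the replicate 2 cluster that overlaps it most. Fold change intervals are exact (Clopper-Pearson on the IP share of reads). The Cochran-Mantel-Haenszel test was two-sided, with Benjamini-Hochberg adjustment over 61,428 pairs. Python 3.11.15, numpy 2.4.6, scipy 1.17.1, pandas 2.3.3, pysam 0.24.0, samtools 1.23.1 and matplotlib 3.10.9 were used.

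By rule, all 9 members were named, with the sites significant in both replicates or else the significant cluster with the most IP reads in each replicate, and related genes with such sites. Other clusters, the place of Chd3, Chd4 and Chd5 among gene medians and the small RNAs were picked after their values were seen. The members and lists were chosen with earlier results of these data known. Alternatives covered the thresholds, read minimums, adjustment, overlap, region order and annotation, each replicate alone, the replicate block and, added after seeing the data, the nearest transcription start site.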

Additional observations from a re-analysis of the deposited data

Results flagged for a closer look

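Clusters on the strand opposite to a CHD gene were outside the counts above. They were found in the span of Chd8 alone, 5 in replicate 1 and 3 in replicate 2, where an annotated antisense RNA, Gm26590, overlaps the gene. In replicate 2, 1 of them was significant: at chr14:52209224-52209296 on the plus strand, with 9 IP and 3 SMInput reads, a log2(fold change) of 3.43 (exact 95% interval 1.43 to 5.95) and a −log10(P value) of 3.91. None of the 5 in replicate 1 was significant, their log2(fold change) running from 1.35 to 3.35 on at most 6 IP reads, and none lay at this position.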

How the results depend on the processing

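Of 34 values under alternative processing, 15 stayed within 1.5 times the count or within the interval of the share reported, and 19 did not. With both thresholds raised to 3, significant CHD clusters fell from 10 to 1 in replicate 1 and from 20 to 2 in replicate 2, genes with one in both replicates from 5 to 1 (Chd2) and shared sites from 1 to 0, while the 3′UTR share went from 20.0% to 0% of 1 cluster and from 35.0% to 100% of 2. Benjamini-Hochberg adjustment left 6 and 11 clusters. A minimum of 10 IP reads left 2 clusters in replicate 2, 1 gene (Chd5) and 0 shared sites, and a minimum of 2 SMInput reads left 10 clusters in replicate 2 and 3 genes (Chd4, Chd5, Chd8). When the overlap had to cover 50% of both clusters, 0 shared sites were left. The nearest start site, added after seeing the data, gave 13 clusters in replicate 2 and 3 genes. With 1 replicate left out, the sites significant in the remaining replicate numbered 10 to 19. The paired test with the replicate block called 7 pairs where both clusters were significant in 1. The region order and the full annotation, run for the 3′UTR shares, left both as they were, and counting any base inside the gene, run for the clusters and for the genes with one in both replicates, left those counts as they were.

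Depth limits every fold change here. The exact intervals of all 30 significant clusters had lower bounds from 0.36 to 1.8 on the log2 scale, and 0 of 30 had a lower bound at 2. That all lay above 0 follows from the call, which used the same reads, and adds no support. The comparison of IP with SMInput rests on 2 paired replicates, the IP had no control without the protein, and positions rest on clusters called in the IP alone, so RNA without IP reads is not listed.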
